A study of Mus musculus with 3 samples.

Results

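Ccl5-positive CD8 T cells of mouse spleen are described here from 3 single-cell RNA sequencing libraries of the 10x Genomics droplet type. A cell was counted as a member when its barcode held at least 500 unique molecular identifiers (UMIs, each standing for 1 captured RNA molecule), at least 200 genes and under 10% mitochondrial UMIs. It also had to hold at least 1 UMI of the T cell receptor complex genes Cd3d, Cd3e or Cd3g, at least 1 of the CD8 coreceptor genes Cd8a or Cd8b1 and at least 2 of the chemokine gene Ccl5. Cd4, Foxp3, Trdc, Cd79a and Cd79b all had to be at 0. The rule found 789 members among 32509 barcodes past the first 3 limits, out of 35739 deposited barcodes. The members were thus chosen by their measured UMIs of these genes, Ccl5 included. There were 313 members in the IR+HSO library, 327 in the IR library and 149 in the control library.

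All 3 groups were wild-type mice, and each group has 1 library of ground spleen. IR+HSO mice received 8.5 Gy of irradiation and HSO, which the series title gives as hemp seed oil. IR mice received 8.5 Gy and a "colvent control", read here as the vehicle, which is uncertain, and control mice were not irradiated. Strain, age, sex, the number of mice per library, the oil's dose and route and the time from irradiation to sampling are not given in the sources used here. With 1 library per group no difference has a replicate check, no p-value is given, and the 95% intervals cover counting error only. Each comparison is therefore between libraries, and animal, handling and sequencing run cannot be told apart from the treatment.

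CD8 T cells kill infected or altered cells with granules of perforin and granzymes. Naive CD8 T cells circulate through lymphoid organs with homing receptors such as Ccr7. Antigen-experienced or cytokine-driven memory CD8 T cells carry CD44, the interleukin 2 and 15 receptor chain CD122 (Il2rb) and, in mice, often Ly6C. Memory cells also keep Ccl5 messenger RNA ready, and its product attracts T cells, NK cells and monocytes. Ionising radiation breaks DNA, and in lymphocytes the p53 protein then switches on genes for cell cycle arrest and for death.

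The 3 libraries held 45636807 UMIs in IR+HSO, 50836313 in IR and 47298108 in control. Members held 1730732 UMIs in IR+HSO, 1662417 in IR and 1045580 in control, with medians per cell of 4987, 4518 and 7167 UMIs in that order. Members of the control library were thus the deepest, and shares of cells with a gene are given after thinning every cell to 1000 UMIs. No member had under 1000 UMIs in IR+HSO, against 8 in IR and 2 in control, and these were left out of thinned shares. The libraries shared 54 barcodes between IR+HSO and IR, 44 between IR and control and 34 between IR+HSO and control, none of them members. Libraries also differed in other ways that touch the results. The median mitochondrial share of members was 2.85% in IR+HSO, 2.32% in IR and 1.99% in control. The ribosomal RNA feature Rn18s-rs5 took 4.99% of all UMIs in the IR+HSO library, 1.23% in IR and 2.97% in control.

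Among CD8 T cells, the Ccl5-positive share was 52.8% [48.7, 56.9] in IR+HSO, 55.3% [51.2, 59.4] in IR and 18.2% [15.6, 21.0] in control. These are 313 of 593 cells in IR+HSO, 327 of 591 in IR and 149 of 819 in control, with exact (Clopper-Pearson) 95% binomial intervals. The irradiated shares lay far above control, and the IR+HSO and IR intervals overlapped. CD8 T cells as a whole were 7.71% of T cells (Cd3 with no Cd79) in IR+HSO, 6.46% in IR and 32.0% in control. Cells with Ccl5 at 0 made up 2.53% of T cells in IR+HSO, 1.75% in IR and 23% in control. Members made up 4.07% [3.64, 4.53] of T cells in IR+HSO, 3.57% [3.20, 3.98] in IR and 5.82% [4.94, 6.79] in control. Shares are relative and do not give the number of cells in a spleen.

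**Figure D1:**
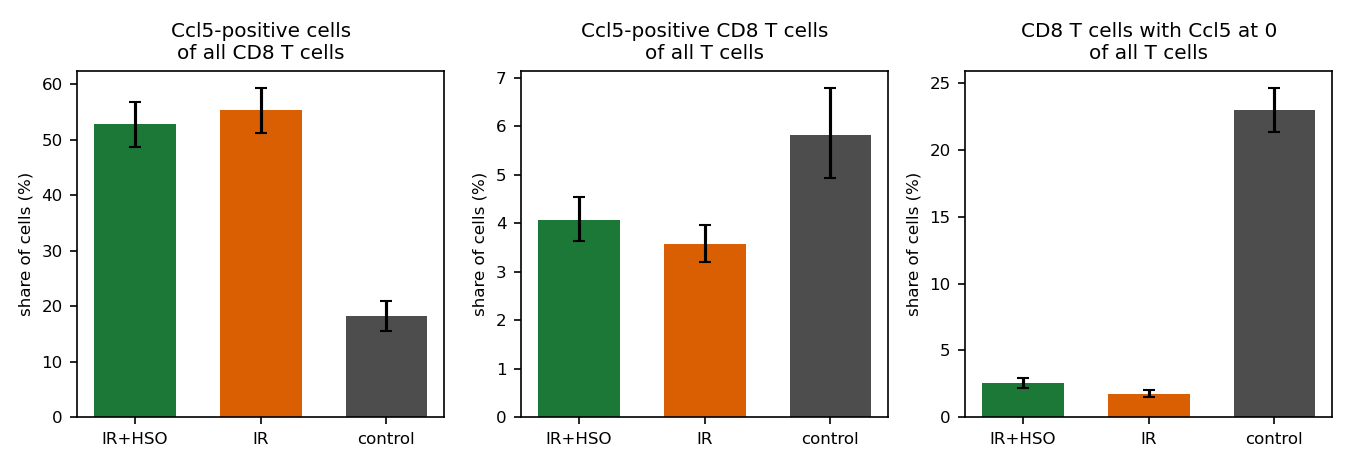
Bars give 3 shares in per cent for the IR+HSO, IR and control libraries, with exact 95% binomial intervals that cover counting error only. Ccl5-positive cells were 52.8% and 55.3% of CD8 T cells in the 2 irradiated libraries and 18.2% in control, while cells with Ccl5 at 0 were 2.53% and 1.75% of T cells in the irradiated libraries and 23% in control.

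The order of the CD8 shares held at equal depth. With every cell thinned to 1000 UMIs and gated anew, members were 30.4% of CD8 T cells in IR+HSO, 31.6% in IR and 8.93% in control. Ccl5 UMIs were also more frequent in the CD4 and Cd79 gates of the irradiated libraries, though not in the NK gate, and free RNA can put a CD8 T cell without its own Ccl5 into the gate. Of CD4 T cells, gated the same way with Cd4 in place of CD8, 24.1% in IR+HSO, 34.1% in IR and 5.76% in control had at least 2 Ccl5 UMIs, at median depths of 3424, 3646.5 and 5109 UMIs. Of barcodes with at least 2 Cd79a or Cd79b UMIs and no Cd3, mostly B-lineage cells, 23.8% in IR+HSO, 27.1% in IR and 1.96% in control did. Median depths of that Cd79 gate were 8735.5, 7625.5 and 3676 UMIs in IR+HSO, IR and control. In the NK gate, whose cells make Ccl5, the shares were 90.6% in IR+HSO, 88.5% in IR and 95.5% in control. A limit of 5 Ccl5 UMIs lowered the Cd79 gate to 2.98% in IR+HSO, 4.66% in IR and 1.21% in control, and the CD4 gate to 12.1%, 15.2% and 3.96%. It left 42.8% of CD8 T cells in IR+HSO, 40.9% in IR and 13.7% in control. The part of free RNA in the share of members was not tested beyond these values.

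Ccl5 chose the cells, so its level is given as a description only. Members held a median of 24 Ccl5 UMIs in IR+HSO, 17 in IR and 15 in control, with maxima of 342, 200 and 111. Cells with 20 or more Ccl5 UMIs were 55.9% of members in IR+HSO, 47.7% in IR and 43.0% in control. Cells with 2 to 4 were 18.8%, 26.0% and 24.8% in the same order. Just outside the limit lay 85 CD8 T cells in IR+HSO, 104 in IR and 82 in control with 1 Ccl5 UMI, and just inside it 41, 58 and 21 with 2. CPM here are UMIs of a gene, summed over the cells of a library, scaled to 1000000 UMIs of the same cells. Cells with 2 UMIs had 317 CPM of Il2rb in IR+HSO, 359.7 CPM in IR and 214 CPM in control, and cells with 1 UMI had 267, 212 and 108 CPM.

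Levels of other genes differed between Ccl5 bands inside the gate. Lef1, a transcription factor of naive T cells, stood at 403 CPM in IR+HSO, 603 CPM in IR and 419 CPM in control among members with 2 to 4 Ccl5 UMIs. Among members with 20 or more it stood at 187, 193 and 309 CPM. Klrk1, which encodes the activating receptor NKG2D, had 49.9, 85.7 and 55.8 CPM in the low band and 273, 371 and 191 CPM in the high band, again for IR+HSO, IR and control. Klrk1 did not follow the bands step by step in control, where members with 5 to 19 Ccl5 UMIs had 5.80 CPM. In CD8 T cells with Ccl5 at 0 Lef1 was at 536 CPM in IR+HSO, 607 CPM in IR and 675 CPM in control, so members of IR with 2 to 4 Ccl5 UMIs lay at the level of cells without Ccl5.

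The rule itself required Cd3 and CD8 UMIs, so these do not check the label. At least 1 UMI of a T cell receptor constant gene was found in 97.1% of members in IR+HSO, 97.6% in IR and 99.3% in control, without thinning. Trac, the alpha constant gene, had 384 CPM in members of IR+HSO, 468 CPM in IR and 513 CPM in control, against 24.4, 27.3 and 14.3 CPM in the NK gate. Trbc1, a beta constant gene, separated them less, at 569, 726 and 671 CPM in members and 389.9, 479.7 and 349.6 CPM in the NK gate. As a description of the gate, Cd8b1, the chain that marks conventional CD8 T cells, had a UMI in 68.7% in IR+HSO, 67.6% in IR and 91.3% in control. Il2rb had a UMI after thinning in 49.5% of members in IR+HSO, 48.6% in IR and 31.3% in control, against 22.1%, 11.6% and 6.51% of CD8 T cells with Ccl5 at 0 in the same libraries. Ly6c2 had one in 40.3%, 40.1% and 46.3% of members, against 5.52%, 6.12% and 16.8%. In cells of the Cd79 gate, which should lack Il2rb, the thinned share was 5.99% in IR+HSO, 4.27% in IR and 1.05% in control. For Ly6c2, which mouse plasma cells also carry, it was 25.1%, 19.7% and 1.72%.

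Markers of NK cells, which also carry Ccl5, were present in part of the members. Most genes of the NK list were higher in both irradiated libraries than in control. Eomes was lower in both, at 78.6 CPM in IR+HSO, 81.2 CPM in IR and 113.8 CPM in control. Klra4 (40.4, 77.0 and 62.2 CPM) and Klra8 (28.9, 81.8 and 30.6 CPM) were lower in IR+HSO than in control. All 8 genes of the NK list had UMIs in every library, and their summed level was 718 CPM in IR+HSO, 1084 CPM in IR and 405 CPM in control. That is 13.0%, 13.6% and 4.06% of the level in the NK gate (Ncr1 or Klrb1c with no Cd3 and no Cd79). A UMI of Ncr1, Klrb1c or Tyrobp was found in 137 members in IR+HSO, 152 in IR and 26 in control, or 43.8%, 46.5% and 17.4%. After thinning the shares were 21.4%, 22.9% and 8.16%. Values without these cells are given beside the killer cell results. Of other lists, Cd4, Foxp3 and Trdc are at 0 by the rule, Sox13 of the gamma-delta and innate-like list was at 0 in all 3 libraries, and the 10 myeloid and dendritic genes summed to 22.5 CPM in IR+HSO, 15 CPM in IR and 19.1 CPM in control.

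The 8 pan T genes summed to 4004 CPM in IR+HSO, 5170 CPM in IR and 5232 CPM in control, and the 6 CD4 and regulatory T genes to 296, 295 and 107 CPM. The 8 gamma-delta and innate-like genes summed to 158, 192 and 73.6 CPM, the 8 B cell genes, which include MHC class II, to 58.9, 670.1 and 792 CPM and the 7 erythroid and platelet genes to 1.16, 1.20 and 110.0 CPM. MHC class II genes, which mouse T cells do not normally transcribe, came from few members. At least 3 UMIs of H2-Aa, H2-Ab1 and H2-Eb1 together were found in 1 member in IR+HSO, 8 in IR and 15 in control. The 7 genes of the plasma cell list, among them 3 immunoglobulin genes, summed to 2012 CPM in IR+HSO, 2177 CPM in IR and 722 CPM in control. In the Cd79 gate the same genes summed to 524071 CPM in IR+HSO, 516213 CPM in IR and 33852 CPM in control. The part of these cell types' RNA in the results below was not tested, except where values without the cells concerned are given.

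The cut by Ccl5 split CD8 T cells into memory-type and naive-type expression in each library, a description since the 2 sides were cut by Ccl5 itself. Of 2975 genes with a mean of at least 50 CPM over these cells, 50 were at least 2-fold higher and 44 at least 2-fold lower in members than in cells with Ccl5 at 0 in IR+HSO, or 1.68% and 1.48%. The counts were 57 and 26 in IR (1.92% and 0.874%) and 43 and 12 in control (1.45% and 0.403%). Higher in all 3 libraries were 30 genes (1.01%) and 7 (0.235%) were lower in all 3. In cells with Ccl5 at 0 the plasma cell list summed to 9512 CPM in IR+HSO, 1937 CPM in IR and 724 CPM in control. Immunoglobulin genes were not left out of these counts, and the part of such RNA was not tested.

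Killer receptor genes led the higher side. Klrk1 had 198, 301 and 97.6 CPM in members of IR+HSO, IR and control, against 6.36, 15 and 6.50 CPM in cells with Ccl5 at 0. Klra7, a Ly49 receptor that recognises MHC class I, differed by log2 ratios of 3.64, 3.80 and 5.31, and Klrc2, an NKG2 receptor, by 3.37, 3.90 and 3.4. Reads of these receptor families can be split between similar genes. Without members that held an NK marker UMI, Klrk1 had 67.7, 157 and 52.0 CPM, Klra7 52.8, 139 and 47.3 CPM and Klrc2 64.3, 94.4 and 37.8 CPM. Genes typical of NK cells were on the higher side too, with log2 ratios of 3.45, 3.06 and 3.58 for Klrb1c, 3.05, 3.24 and 2.12 for Fcer1g and 2.10, 1.62 and 1.52 for Tyrobp. Il18rap, a chain of the interleukin 18 receptor, differed by 3.1, 3.57 and 3.34. Memory markers differed less, with log2 ratios of 1.41, 2.30 and 2.18 for Il2rb, 1.27, 1.71 and 2.0 for the adhesion receptor Cd44 and 1.87, 1.47 and 2.92 for the chemokine receptor Cxcr3.

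The lower side held naive genes. The lymph node homing receptor Ccr7 stood at 80.9, 78.8 and 97.6 CPM in members of IR+HSO, IR and control and at 286, 212 and 210.0 CPM in cells with Ccl5 at 0. Ccr9, a receptor that guides T cells to the gut, differed by log2 ratios of -2.77, -2.24 and -2.81. The other 5 lower genes were Rgcc, Igfbp4, Ramp1, Trib2 and Izumo1r.

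**Figure D2:**
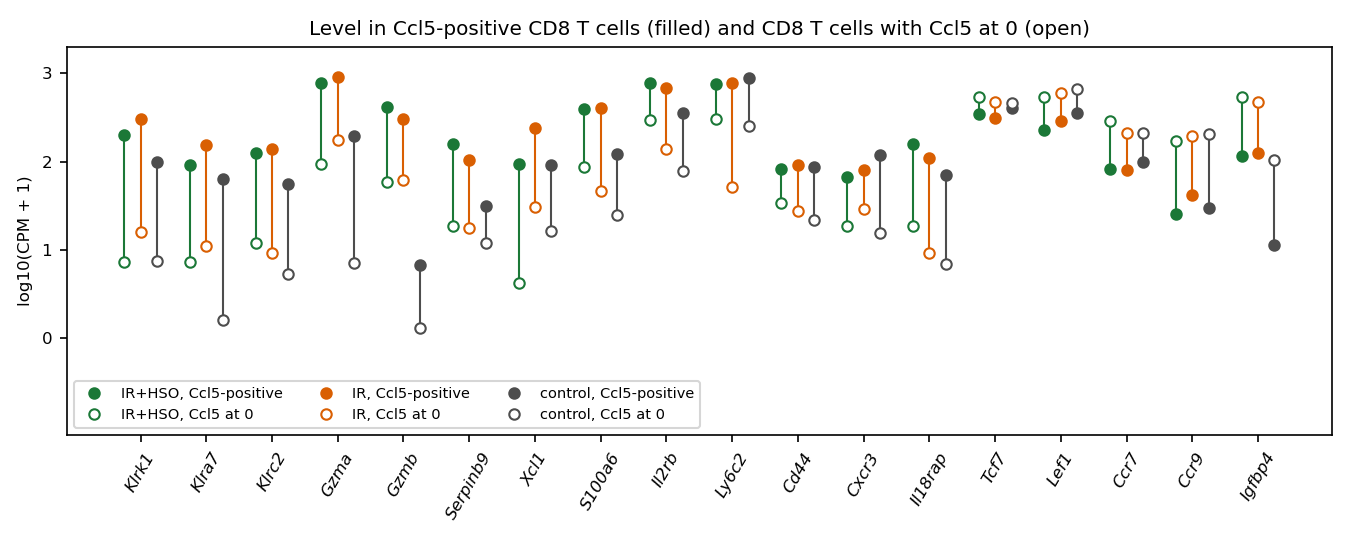
The y axis gives log10(CPM + 1) of 18 genes in Ccl5-positive CD8 T cells (filled) and in CD8 T cells with Ccl5 at 0 (open) of the IR+HSO, IR and control libraries, with a line joining the 2 cell sets of a library. Killer receptor, granule and memory genes stood higher in the Ccl5-positive cells of all 3 libraries, while Ccr7, Ccr9 and Igfbp4 stood lower.

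The T cell receptor beta segments of members were varied in each library. A UMI of exactly 1 Trbv segment was found in 53 members in IR+HSO, 55 in IR and 28 in control, over 17, 17 and 15 segments. The most frequent was Trbv13-2 in IR+HSO with 8 cells, Trbv12-2 in IR with 11 cells and Trbv29 in control with 4 cells. Most members had no Trbv UMI, so clones cannot be read from these data.

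The question of IR against control is what 8.5 Gy and vehicle went with in these cells. The genes at least 2-fold higher in IR included p53 targets, granzymes, killer receptor genes and Bcl2, and few genes were lower. Of 2915 genes with a mean of at least 50 CPM over the 3 libraries, gate genes left out, 114 had a ratio of IR to control of at least 2 and for 9 the ratio of control to IR was that large. These higher and lower genes are 3.91% and 0.309% of the genes measured, or 4.22% together, the background against which counts of a gene list are read. The mean covers both irradiated libraries, so a gene high only in these passed the limit more readily than a gene high only in control. Counts against control, of all genes and of lists, are therefore tilted to the higher side. A fold here is the ratio of CPM plus 1. The median log2 ratio of all 2915 genes was 0.16, and with each ratio taken relative to that median the counts were 84 higher and 26 lower. On that scale Trp53inp1, Bcl2l11, Casp8, Serpinb6b, S100a4, S100a11, Lgals1, Bst2, Ifi27l2a, Ier5 and Ddit4 of the lists below were under 2-fold, which left 7 of 12 p53 targets, 3 of 12 granule genes, 5 of 20 memory genes and 2 of 9 interferon genes past it, and Actn1 of the naive list was past it on the lower side.

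The p53 targets were higher as a group. Of 12 list members measured, 8 were at least 2-fold higher in IR and 0 lower, with a median log2 ratio of 1.59 and all 12 above 0. Cdkn1a (p21), a brake on the cell cycle kinases, had 353 UMIs in IR and 1 in control, or 212 and 0.956 CPM, a ratio of 222 [39.6, 8794]. After thinning it was found in 16.9% of members in IR and 0.680% in control. Phlda3, which restrains the kinase Akt, had 92.0 CPM in IR and 5.74 CPM in control, a ratio of 16 [7.20, 44.4]. The RNA-binding protein gene Zmat3 had 98.7 CPM in IR and 11.5 CPM in control. Bax, whose protein opens the mitochondrial outer membrane in apoptosis, had 535 CPM in IR and 136 CPM in control, a ratio of 3.94 [3.3, 4.74]. Ccng1, Aen, Rps27l and Trp53inp1 were also at least 2-fold higher, with log2 ratios of 1.76, 1.65, 1.53 and 1.12.

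The other 4 measured p53 targets stayed under 2-fold. They were Ei24 with a log2 ratio of 0.89, the BH3-only killer gene Bbc3 (Puma) with 0.60, Mdm2, which encodes the ligase that degrades p53, with 0.45, and the antiproliferative gene Btg2 with 0.30. The 13 remaining list genes, among them Fas and Sesn1, were too low to be measured by the limit of 50 CPM. Fas, the death receptor, had 42.7 CPM in IR and 15.3 CPM in control.

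The p53 medians were also above 1 in other cells. The same 12 genes had a median log2 ratio of 1.86 in CD8 T cells with Ccl5 at 0, 1.68 in the CD4 gate and 1.18 in the NK gate. Without members that held an NK marker UMI it was 1.71, and with the limit of 5 Ccl5 UMIs 1.47.

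Some pro-apoptotic genes and the anti-apoptotic gene Bcl2 stood higher. Of 4 pro-apoptotic genes measured 3 were at least 2-fold higher in IR, namely Bax, the BH3-only gene Bcl2l11 (Bim) at 170.2 CPM in IR and 83.2 CPM in control and the initiator caspase gene Casp8 at 129.9 and 63.1 CPM. Bcl2l11 and Casp8 lay at the limit, with log2 ratios of 1.02 and 1.03, and relative to the all-gene median 1 of the 4 stayed past 2-fold. Of 5 anti-apoptotic genes, 1 was higher. That gene was Bcl2, which protects lymphocytes from mitochondrial death, at 1278 CPM in IR and 403 CPM in control, a ratio of 3.17 [2.86, 3.53]. Bcl2 had a thinned UMI in 70.2% of members in IR and 29.9% in control. Mcl1, Birc2, Xiap and Cflar had log2 ratios of 0.20, 0.15, -0.094 and 0.23. Bcl2 was also higher in CD8 T cells with Ccl5 at 0, at 1354 CPM in IR and 234 CPM in control, and in the NK gate, at 1094 and 335 CPM.

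Granule genes differed one by one. Of 12 granule and cytotoxicity genes measured, 4 were at least 2-fold higher and 0 lower, with a median log2 ratio of 0.44. Gzmb, the granzyme that triggers caspases in target cells, had 304 CPM in IR and 5.74 CPM in control, a ratio of 53 [24.2, 145]. After thinning it was found in 20.4% of members in IR and in 0 of 147 in control, which allows a share of up to 2.04% (3 counts of the total). Without cells that held an NK marker UMI it stood at 240.2 CPM in IR and 1.18 CPM in control. Gzmb was not absent from control NK cells, where it had 358 CPM, against 1310.3 CPM in NK cells of IR. In CD8 T cells with Ccl5 at 0 Gzmb was higher in IR too, at 61.8 CPM against 0.310 CPM in control. Its thinned share in the Cd79 gate was 3.85% in IR and 0.242% in control.

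Gzma, a granzyme with another cleavage preference, had 918 CPM in members of IR and 196 CPM in control. Without cells that held NK markers Gzma had 155 CPM in IR and 30.7 CPM in control, and the NK gate held 9995 and 10373 CPM. CD8 T cells with Ccl5 at 0 held 175 CPM of Gzma in IR and 6.19 CPM in control, so its rise was not limited to members. A thinned UMI of Gzma, Gzmb or Gzmk was found in 38.2% of members in IR and 6.80% in control. In the Cd79 gate these shares were 13.2% and 1.69%, and the part of free RNA was not tested. Serpinb9, which shields killer cells from their own granzyme B, had 104 CPM in IR and 30.6 CPM in control. Serpinb6b, another intracellular serpin, had 129 and 59.3 CPM. Perforin (Prf1) differed little, at 119 CPM in IR and 113 CPM in control, a ratio of 1.05 [0.832, 1.33], and the granule gene Nkg7 had a log2 ratio of 0.70. Fasl, the ligand of Fas, lay under the limit of 50 CPM as a mean of the 3 libraries, at 59.6 CPM in IR and 1.91 CPM in control, with UMIs in 75 and 2 members.

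Killer receptors of CD8 T cells stood higher in IR, with 5 of 9 measured genes past 2-fold and 0 lower, and a median log2 ratio of 1.26. They were Klrc1, Klrc2, Klrk1, Klra7 and Cd160. Klrk1 had 301 CPM in IR and 97.6 CPM in control, and 157 and 52.0 CPM without cells that held NK markers. The list's median without those cells was 1.22. In the NK gate itself the median was 0.11, in CD8 T cells with Ccl5 at 0 it was 0.88 and in the CD4 gate 2.76. Ncr1, which encodes the NK receptor NKp46, was among the 12 genes furthest from no change, at 100.5 CPM in IR and 12.4 CPM in control.

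Of 20 CD8 memory genes measured, 8 were at least 2-fold higher in IR and 0 lower, with a median log2 ratio of 0.84. These were the surface protein gene Ly6a, the chemokine receptor gene Ccr2, Cd7, the calcium-binding protein genes S100a4, S100a6 and S100a11, the annexin gene Anxa2 and the galectin gene Lgals1. S100a6 had 401 CPM in IR and 122 CPM in control, and Ly6a, which interferons induce, had 128 and 28.7 CPM. Il2rb had 686 CPM in IR and 358 CPM in control, a log2 ratio of 0.94. Classical memory genes showed no common direction, with log2 ratios of -0.21 for Ly6c2, 0.058 for Cd44, -0.48 for the memory transcription factor Eomes, 0.65 for its relative Tbx21 (T-bet) and -0.53 for Cxcr3.

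Of 14 naive and homing genes measured, 1 was at least 2-fold higher in IR and 1 lower, with a median log2 ratio of -0.22. Dapl1 was the lower one, at 43.3 CPM in IR and 253 CPM in control, a ratio of 0.171 [0.130, 0.223]. In CD8 T cells with Ccl5 at 0 it was lower as well, at 85.2 CPM in IR and 494 CPM in control. Igfbp4, which encodes a secreted binder of insulin-like growth factors, was the higher one, at 124 CPM in IR and 10.5 CPM in control. It was far higher in cells with Ccl5 at 0, at 468 and 103 CPM, and among members of IR it had 289 CPM with 2 to 4 Ccl5 UMIs, 57.2 CPM with 5 to 19 and 98.9 CPM with 20 or more. Of transcription factors of CD8 differentiation, 3 of 14 were at least 2-fold higher, namely Id2, which blocks E proteins and favours effector cells, Ikzf2 (Helios) and Bhlhe40. Id2 had 487 CPM in IR and 153 CPM in control.

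The other genes furthest from no change on the higher side were Serpine2, Cish, Serpina3g, Cdk6, Stmn1 and Spp1. Serpine2, a secreted inhibitor of serine proteases, had 177 UMIs in IR and 0 in control and was at least 37.1-fold higher, with 3 counts in the control library as the floor. Cish, a feedback inhibitor of cytokine receptors, had 80.0 CPM in IR and 3.83 CPM in control. Serpina3g, an inhibitor of lysosomal cathepsins, had 125 and 11.5 CPM and the cell cycle kinase gene Cdk6 153 and 23 CPM. Spp1 (osteopontin) rests on 1 cell, which held 99.4% of its 319 UMIs in IR. Lower were, beside Dapl1, the sialic acid enzyme gene Cmah at 111 CPM in IR and 236 CPM in control, BE692007 with a log2 ratio of -1.15, and 3 features that were lower in the NK, CD4 and Cd79 gates too, namely Mir6236, Gm10076 and Rn18s-rs5. Rn18s-rs5 had a log2 ratio of -1.34 in members and -1.11 in the NK gate.

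**Figure D3:**
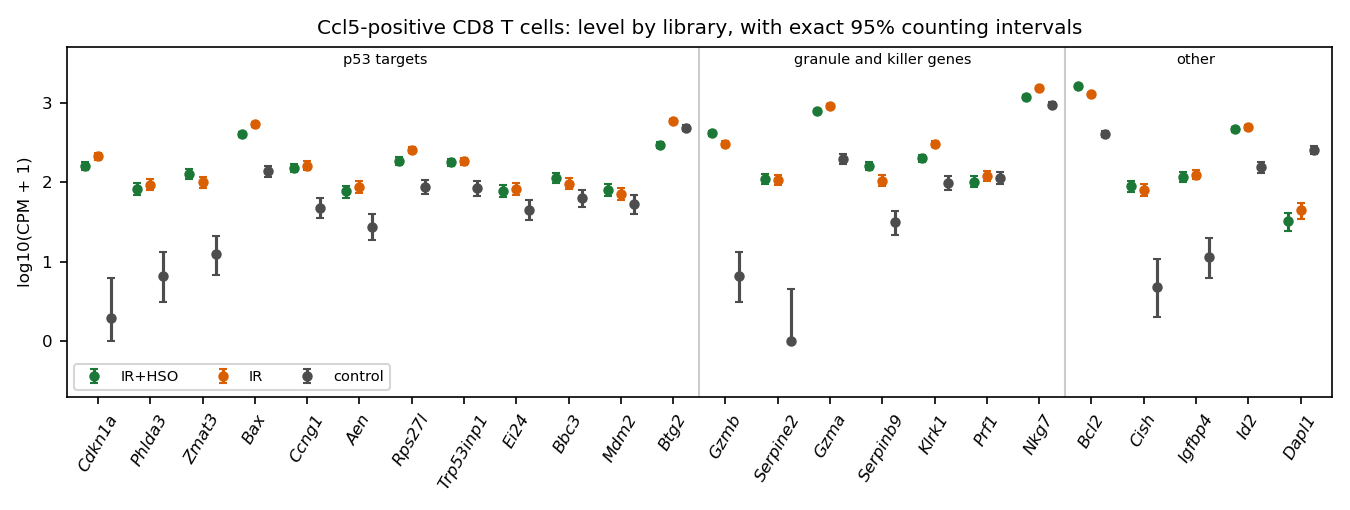
The y axis gives log10(CPM + 1) in Ccl5-positive CD8 T cells of the IR+HSO, IR and control libraries, with exact 95% Poisson intervals, for the 12 measured p53 targets, 7 granule and killer genes and 5 other genes. Cdkn1a, Phlda3, Zmat3, Gzmb, Serpine2, Cish and Igfbp4 stood far lower in control than in both irradiated libraries, Prf1 was level, and Dapl1 stood higher in control.

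Proliferation genes were higher in IR, but in few cells. Of 6 measured, 5 were at least 2-fold higher, with a median log2 ratio of 1.69. The same median was 2.40 in CD8 T cells with Ccl5 at 0, 1.71 in the CD4 gate and 0.45 in the NK gate. Mki67, a marker of dividing cells, had 125 CPM in IR and 30.6 CPM in control, and 1 cell held 20.3% of its UMIs in IR. A thinned UMI of Mki67 or Top2a was found in 4.39% [2.42, 7.25] of members in IR and 2.04% [0.423, 5.85] in control. These intervals overlap, and so a difference in the share of dividing members was not detectable at this depth.

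Part of the interferon response genes stood higher. Of 9 measured, 4 were at least 2-fold higher in IR and 0 lower, with a median log2 ratio of 0.74. Isg15, a ubiquitin-like antiviral protein gene, had 95.6 CPM in IR and 30.6 CPM in control, and Ifi27l2a, Bst2 (tetherin) and the nucleic acid sensor gene Zbp1 had log2 ratios of 1.15, 1.08 and 1.33. Irf1 had -0.13. The list's median was 0.42 in CD8 T cells with Ccl5 at 0 and 0.67 in the NK gate.

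Several lists held no gene past 2-fold in IR against control. They were T cell receptor signalling (0 of 14, median -0.067), cytokine receptors (0 of 10, -0.033), antioxidant enzymes (0 of 10, 0.43), fatty acid oxidation (0 of 4, 0.33), glycolysis (0 of 9, 0.20), oxidative phosphorylation (0 of 19, 0.20), MHC class I presentation (0 of 15, 0.37), the unfolded protein response (0 of 5, 0.45) and DNA damage sensing and repair (0 of 3, 0.48). The chemokine and cytokine ligands had 2 of 4 genes higher, Xcl1 and Ccl4. Of glucocorticoid and FOXO responsive genes 2 of 8 were higher, Fkbp5, a chaperone of the glucocorticoid receptor, at 91.4 CPM in IR and 29.6 CPM in control, and Ddit4, an inhibitor of mTOR signalling, at 91.4 and 42.1 CPM. Of the inhibitory receptor list, Cd160 was higher, and the transcription factor gene Tox, also on it, had a log2 ratio of 0.015. Pdcd1, Lag3 and Tigit were too low to be measured, at 4.81, 7.82 and 3.01 CPM in IR and 2.87, 1.91 and 1.91 CPM in control. Of activation and costimulation genes 1 of 5 was higher, the costimulatory receptor gene Tnfrsf18, with a log2 ratio of 1.60. Of chemokine receptors and adhesion genes 1 of 14 was higher, Ccr2, and of immediate early and stress genes 2 of 20, Dusp5 and Ier5.

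IR+HSO against IR asks what the oil went with in irradiated cells. Immediate early genes, several heat shock chaperones, Xcl1 and Ccl4 stood lower in IR+HSO, p53 targets, granzymes and Bcl2 stood close to IR, and Tox was among the few genes at least 2-fold higher. Of the 2915 genes, 18 were at least 2-fold higher in IR+HSO than in IR and 50 at least 2-fold lower, or 0.617% and 1.72%, and 2.33% together. The median log2 ratio of all genes was -0.095, and relative to it 22 were higher and 40 lower. On that scale Ier5, Cd69 and Egr1 were under 2-fold, which left 7 of 20 immediate early and stress genes past it, and Fkbp5 was past it on the higher side.

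The p53 targets of the 2 irradiated libraries lay within 2-fold of each other. Of the 12 measured, 0 were at least 2-fold higher and 0 lower in IR+HSO, with a median log2 ratio of -0.13. Cdkn1a had 159 CPM in IR+HSO and 212 CPM in IR, a ratio of 0.748 [0.637, 0.879], and Bax 402 and 535 CPM, a ratio of 0.750 [0.678, 0.829]. Phlda3 had a ratio of 0.891 [0.704, 1.13] and Zmat3 of 1.28 [1.04, 1.58]. Btg2 was the furthest, at 295 CPM in IR+HSO and 589.5 CPM in IR. Beside control, the same 8 genes as in IR were at least 2-fold higher in IR+HSO, where 3.95% of all genes were higher and 1.34% lower, or 5.28% together. That comparison uses the same control library as the one above and is no independent support for it.

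Granule and survival genes of IR+HSO also stayed within 2-fold of IR. Of 12 granule genes 0 were higher and 0 lower, with a median of -0.21. Gzmb had 414 CPM in IR+HSO and 304 CPM in IR, a ratio of 1.36 [1.21, 1.53], and Serpinb9 159 and 104 CPM, with a log2 ratio of 0.61. Prf1 had a log2 ratio of -0.23. Bcl2 had 1599 CPM in IR+HSO and 1278 CPM in IR, with a ratio of 1.25 [1.18, 1.32]. Il7r, the receptor chain for the survival cytokine interleukin 7, had 872 CPM in IR+HSO and 681 CPM in IR.

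By count, the immediate early and stress list had the most genes past 2-fold of the 25 lists with a measured gene. Of its 20 measured, 8 were at least 2-fold lower in IR+HSO than in IR and 0 higher, with a median log2 ratio of -0.79. Some shorter lists had larger shares past 2-fold, such as 3 of 6 proliferation genes and 2 of 4 chemokine and cytokine ligands. Fos, a subunit of the transcription factor AP-1, had 57.2 CPM in IR+HSO, 244 CPM in IR and 277 CPM in control. Its ratio of IR+HSO to IR was 0.234 [0.186, 0.292], and after thinning 4.47% of members in IR+HSO and 17.6% in IR had a UMI. Jun, its partner, had 254 CPM in IR+HSO, 834 CPM in IR and 664 CPM in control, and Fosb 47.4, 153 and 253 CPM. IR+HSO was the low library for these 3 genes, and IR lay nearer to control.

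Other members of the list were lower by less. Zfp36, which destabilises cytokine messages, had 91.3 CPM in IR+HSO and 206 CPM in IR, and Ier5 had 199.9 and 406 CPM. Junb, Jund and Klf6 had log2 ratios of -0.66, -0.79 and -0.97. Tnfaip3 and Zfp36l2 were the 2 of the 20 above 0, at 0.17 and 0.11. From the activation list, Cd69, an early activation marker that holds T cells in tissue, had 369 CPM in IR+HSO and 745 CPM in IR, and Egr1 had 38.1 and 82.4 CPM.

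The medians of this list in other cells lay nearer to 0. They were -0.47 in CD8 T cells with Ccl5 at 0, -0.40 in the CD4 gate and -0.26 in the NK gate. No test of the difference between cell types is possible with 1 library per group. For Fos the log2 ratios were -2.07 in members, -1.58 in CD8 T cells with Ccl5 at 0, -1.19 in the CD4 gate and -0.73 in the NK gate. Without members that held an NK marker UMI the list's median was -0.86, and with the limit of 5 Ccl5 UMIs -0.80.

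Several heat shock chaperone genes, whose products refold damaged proteins, stood lower in IR+HSO than in IR. They were picked after their values were seen and are given as a description. Hsph1 had 35.8 CPM in IR+HSO, 141 CPM in IR and 163 CPM in control, with a ratio of IR+HSO to IR of 0.254 [0.189, 0.338]. Hspa1a had 41.0 CPM in IR+HSO and 119 CPM in IR, and its near-identical neighbour Hspa1b 109.8 and 189 CPM, so reads of this pair can be split between them. Hsp90aa1 had 254 CPM in IR+HSO and 624 CPM in IR. Dnajb1, Stip1, Cacybp, Dnaja1 and Chordc1, cochaperones of HSP70 or HSP90, had log2 ratios of -1.14, -1.24, -1.23, -1.03 and -0.99. Hspa1b, with a log2 ratio of -0.78, and Chordc1 did not reach 2-fold. In other cells the log2 ratio of Hsph1, at -1.94 in members, was -1.75 in CD8 T cells with Ccl5 at 0, -2.0 in the CD4 gate and -2.03 in the NK gate.

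Genes of this kind are known for heat shock elements in their promoters, repeats of GAA in alternating orientation that bind heat shock factors. Promoters of RefSeq on build GRCm38.p6, from 250 bases before to 50 after each start, were searched for GAANNTTC and TTCNNGAA, each of which is its own reverse complement and so covers both strands. Such an element is common, being held by 4587 of all 27025 listed genes (17.0%) and by 14.0% of 2314 genes measured in members. Since the chaperone genes were picked for their values, nothing is read from how many of them hold one. Those that held one were Hspa1a, Hspa1b, Hsph1, Chordc1 and Dnaja1, and those without one in these windows were Dnajb1, Stip1 and Cacybp. A match is a description of letters and not a site in use. Windows of 40 bases are shown for 4 of the genes to let the letters be compared, with the element in capitals, 5′ to 3′ on the gene's strand. They are Hspa1a at chr17:34972237-34972276 (minus strand), Hspa1b at chr17:34959319-34959358 (minus strand), Hsph1 at chr5:149636346-149636385 (minus strand) and Dnaja1 at chr4:40722328-40722367 (plus strand).
Hspa1a: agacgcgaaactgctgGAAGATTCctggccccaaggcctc
Hspa1b: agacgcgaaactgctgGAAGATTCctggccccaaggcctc
Hsph1: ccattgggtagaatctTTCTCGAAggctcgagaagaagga
Dnaja1: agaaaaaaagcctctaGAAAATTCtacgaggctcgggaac
The windows of Hspa1a and Hspa1b are identical, and the element ends 97 bases before the start of both genes. Hsph1 holds 3 elements, and the one shown ends 26 bases before the nearer of the 2 annotated starts. In Dnaja1 the element ends 117 bases before the first of 3 starts.

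**Figure D4:**
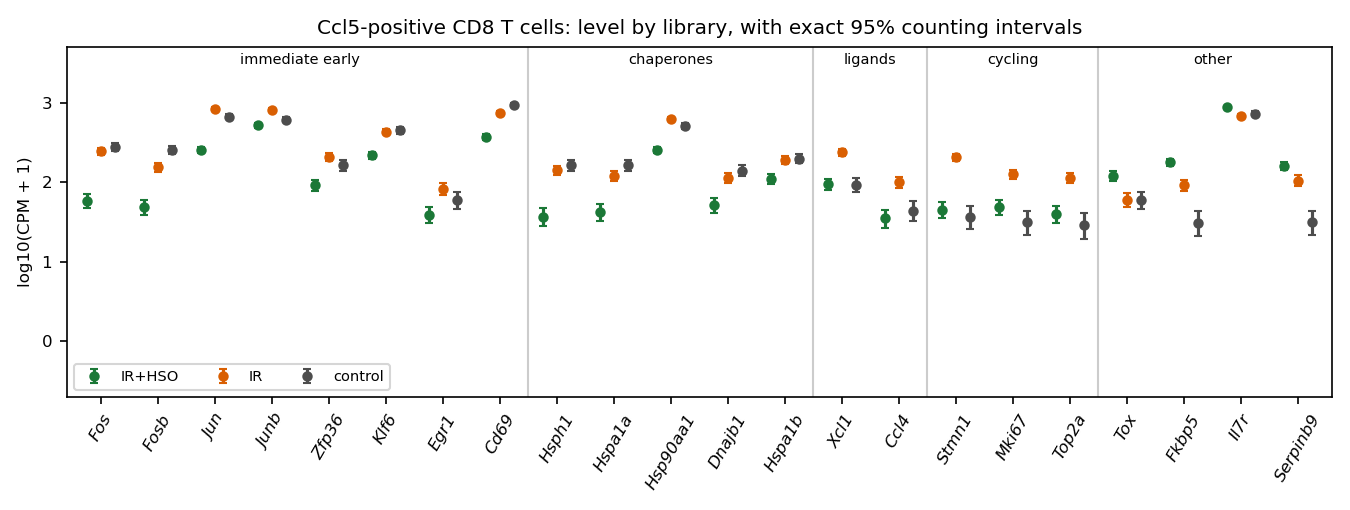
The y axis gives log10(CPM + 1) in Ccl5-positive CD8 T cells of the IR+HSO, IR and control libraries, with exact 95% Poisson intervals, for immediate early genes, heat shock chaperones, ligands, cycling genes and 4 other genes. Immediate early and chaperone genes stood lowest in IR+HSO, Xcl1, Ccl4 and the cycling genes stood highest in IR, and Tox stood highest in IR+HSO.

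In members Xcl1 and Ccl4, ligands of effector CD8 T cells, were highest in IR. Of 4 measured chemokine and cytokine ligands 2 were at least 2-fold lower in IR+HSO than in IR. Xcl1, which attracts cross-presenting dendritic cells, had 93.6 CPM in IR+HSO, 238 CPM in IR and 90.9 CPM in control. Without cells that held an NK marker UMI it had 43.6, 155 and 69.7 CPM. Ccl4, a relative of Ccl5, had 34.1 CPM in IR+HSO, 99.3 CPM in IR and 43.0 CPM in control, and without those cells 35.6, 53.8 and 34.3 CPM. In the NK gate Xcl1 had 352, 578 and 409 CPM and Ccl4 310, 469 and 562 CPM, in that order of libraries. In CD8 T cells with Ccl5 at 0 Xcl1 had 3.18, 30.1 and 15.5 CPM and Ccl4 1.59, 3.34 and 22.9 CPM. The cytokine genes Ltb and Tgfb1 had log2 ratios of -0.47 and -0.24 between IR+HSO and IR. Ifng, which encodes interferon gamma, was too low to be measured, with 42 UMIs in IR+HSO, 85 in IR and 20 in control.

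Proliferation genes were lower in IR+HSO than in IR. Of 6 measured 3 were at least 2-fold lower and 0 higher, with a median log2 ratio of -1.09. The same median was -0.99 in CD8 T cells with Ccl5 at 0, -1.07 in the CD4 gate and -0.46 in the NK gate. Stmn1, which destabilises microtubules, had 43.9 CPM in IR+HSO, 205 CPM in IR and 35.4 CPM in control, and Mki67 47.4, 125 and 30.6 CPM. Single cells weighed heavily, since 1 cell held 26.3% of the Stmn1 UMIs in IR+HSO and 15.5% in IR. Without the top cell of each gene the list's median was -0.57. A thinned UMI of Mki67 or Top2a was found in 3.83% [2.0, 6.60] of members in IR+HSO and 4.39% [2.42, 7.25] in IR. The tubulin gene Tuba1b was also lower, at 52.6 CPM in IR+HSO, 194 CPM in IR and 94.7 CPM in control.

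Of killer receptors 1 of 9 was at least 2-fold lower in IR+HSO, Klre1 at 71.6 CPM in IR+HSO and 171 CPM in IR, and none was higher. The list's median was -0.30 and in the NK gate -0.35. Of 20 memory genes 1 was lower, S100a4 at 38.1 CPM in IR+HSO and 109 CPM in IR, with a list median of -0.15. Of 14 transcription factors 1 was lower and 1 higher. Id3, an E protein inhibitor tied to naive and long-lived memory cells, was the lower one at 29.5 CPM in IR+HSO and 67.4 CPM in IR.

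Tox, a factor tied to the persistence of repeatedly stimulated CD8 T cells, was the higher one. It had 119.6 CPM in IR+HSO, 59.0 CPM in IR and 58.3 CPM in control, a ratio of IR+HSO to IR of 2.03 [1.59, 2.61]. Tox lies at the 2-fold limit, and its ratio was higher in CD8 T cells with Ccl5 at 0, with a log2 value of 1.45, against 0.57 in the NK gate. Among genes short of the limit, Fkbp5 had 177 CPM in IR+HSO and 91.4 CPM in IR, a ratio of 1.93 [1.59, 2.36]. Of the 8 glucocorticoid and FOXO responsive genes 0 were past 2-fold, with a median of 0.35.

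Among the genes furthest from no change on the higher side were Mir6236, Gm10076, Rn18s-rs5, Wdr89, Gstp1, Atp5l, Lars2, Grcc10, Tmem106b, Tpt1-ps3 and Tox. Of these, all but Tmem106b and Tox also had log2 ratios above 1 in the NK gate and in the Cd79 gate. Rn18s-rs5 had a log2 ratio of IR+HSO to IR of 1.96 in members, 1.74 in the NK gate and 2.32 in the Cd79 gate, and the glutathione transferase gene Gstp1 1.90, 1.89 and 1.98. Tmem106b, a lysosomal membrane protein gene, had 1.16, 0.72 and 0.23.

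Of the 12 genes furthest from no change on the lower side, 6 rested on few cells. Spp1, H2-Ab1, Cd74, H2-Aa and H2-Eb1 each drew 44.4% to 99.4% of their UMIs in IR from 1 cell, and Cst3 drew 39.4%. With members of under 3 MHC class II UMIs only, the log2 ratio of Cd74 was -0.63, of H2-Ab1 -0.79, of H2-Eb1 -0.78 and of Cst3 -0.22, H2-Aa was 0.55 and Spp1 1.01. The other 6 were Stmn1, Fos, Hsph1, Jun, Gm12840 and Tuba1b.

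In IR+HSO against IR, 0 genes were past 2-fold in T cell receptor signalling (of 14, median -0.016), naive and homing (of 14, -0.028), interferon response (of 9, -0.18), pro-apoptotic (of 4, 0.045), anti-apoptotic (of 5, -0.031), cytokine receptors (of 10, 0.21), DNA damage sensing and repair (of 3, -0.42) and the unfolded protein response (of 5, -0.42). The metabolic lists, which bear on an oil rich in fatty acids, were also without a gene past 2-fold. Antioxidant enzymes had a median of -0.16 over 10 genes, fatty acid oxidation of -0.18 over 4, glycolysis of -0.25 over 9 and oxidative phosphorylation of -0.14 over 19. MHC class I presentation had -0.30 over 15. Of the lists with a gene past 2-fold that are not yet given, activation and costimulation had a median of -0.50 with 2 of 5 lower (Cd69 and Egr1). Chemokine receptors and adhesion had -0.19 with 1 of 14 lower (Cd69). The inhibitory receptor list had 0.29 with 1 of 2 higher, which was the transcription factor gene Tox and not a receptor. Cd160, the receptor measured, had 131 CPM in IR+HSO and 176 CPM in IR. None of the 18 genes of fatty acid and sterol synthesis reached the limit of 50 CPM, so that pathway could not be measured here.

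**Figure D5:**
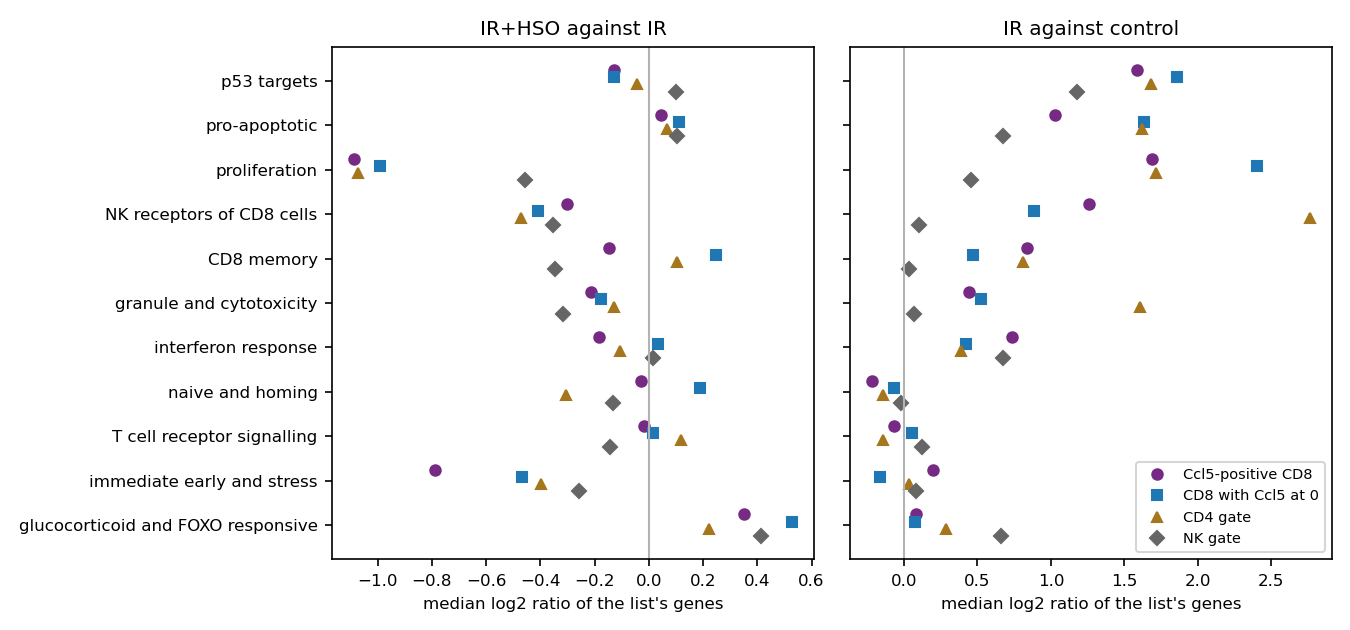
The x axes give the median log2 ratio of 11 gene lists in IR+HSO against IR (left) and IR against control (right), for Ccl5-positive CD8 T cells, CD8 T cells with Ccl5 at 0, the CD4 gate and the NK gate. In IR against control p53 targets lay between 1.18 and 1.86 in all 4 cell sets, and in IR+HSO against IR immediate early and stress genes lay between -0.79 and -0.26.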

How the data were processed

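The authors deposited raw counts of UMIs for each gene in each barcode. The file headers name Cell Ranger 7.0.1, and the submitters' processing notes name GRCm39. The annotation release is not given in the sources used here. The features named 56980 genes, the same in the 3 libraries, and 3 of 505 list symbols were matched through another symbol. Gates, filters and sums were computed in Python 3.11.15. Counts of members were summed per library, scaled to CPM and compared as log2((CPM + 1)/(CPM + 1)). Genes with a mean of at least 50 CPM were measured, and at least 2-fold counted as higher or lower. Ratios carry exact conditional intervals of 2 Poisson counts. Thinning used a fixed seed. The functions were tested on simulated counts. Doublets were not removed for the main values. Alternatives left out the highest doublet scores, computed here from simulated doublets among nearest neighbours in the manner of Scrublet, or changed the gate, filters, scaling, pseudocount, depth and fold. Members, the 26 lists and the alternatives were chosen with earlier results of these data known. Genes were named by rule as the 12 higher and 12 lower by the interval bound nearest to no change, among genes past 2-fold, leaving out immunoglobulin, T cell receptor segment, mitochondrial, ribosomal protein, haemoglobin and pancreatic genes, beside list members. Genes chosen otherwise are so described. Sequences came from RefSeq tables of GRCm38.p6, another build than that of the counts, and were matched by symbol. Results of a few genes are not reported here.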

Additional observations from a re-analysis of the deposited data

Results flagged for a closer look

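RNA of pancreatic acinar genes, mostly for digestive enzymes that T cells do not make, was present in members of both irradiated libraries and not in control. The 14 genes of the list summed to 499 CPM in IR+HSO, 807 CPM in IR and 0 CPM in control. All 14 had UMIs in each irradiated library, in 269 members of IR+HSO and 314 of IR. The signal was not limited to members. The genes summed to 8527 CPM in IR+HSO, 3601 CPM in IR and 6.13 CPM in control in the NK gate, and to 907, 1048 and 0.230 CPM in the CD4 gate. They summed to 771, 1273 and 0.929 CPM in CD8 T cells with Ccl5 at 0 and to 269, 377 and 1.04 CPM in the Cd79 gate, in the same order of libraries. These genes were left out of the named genes, and their part in other results was not tested.

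Barcodes that met every gate but held 10% or more mitochondrial UMIs numbered 12 in IR+HSO, 7 in IR and 0 in control. They were left out of all values above by the mitochondrial limit.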

How the results depend on the processing

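No paired analysis was possible because each group has 1 library. Leaving out a replicate was not possible for the same reason. The Ccl5-positive share of CD8 T cells in IR+HSO, IR and control was 67.1%, 72.9% and 28.2% with at least 1 Ccl5 UMI and 42.8%, 40.9% and 13.7% with at least 5. With at least 3 it was 45.9% in IR+HSO and 45.5% in IR. With Ncr1, Klrb1c and Tyrobp at 0 it was 42.0% in IR+HSO and 46.4% in IR, and after thinning 30.4%, 31.6% and 8.93%. A mitochondrial limit of 5% gave 58.0% in IR+HSO, and at least 1 Cd8b1 UMI gave 50.5% in IR. IR lay above control in all of these settings with values for both. Counts of genes moved with the limits. Higher and lower counts at 1.5-fold were 329 and 73 in IR against control, 88 and 184 in IR+HSO against IR and 300.0 and 143 in IR+HSO against control. At a mean of 20 CPM they were 306 and 30, 44 and 101, and 338 and 89. With no filter they were 2430 and 715, 1372 and 1119, and 2826 and 808, and after thinning 265 and 50, 54 and 108, and 265 and 111. Centring gave 26 lower genes in IR against control and size factors 27, and without NK markers 28 genes were higher in IR+HSO against IR. After thinning the median of NK receptors in IR against control was 0.75 and that of immediate early and stress genes in IR+HSO against IR -1.02. The proliferation median in IR+HSO against IR was -0.64 as a mean over cells, -1.51 with no filter and -0.57 without each gene's top cell. Among named genes, the sign turned against the values reported for Spp1 in IR+HSO against IR, at 0.32 without its top cell and 1.01 with MHC class II under 3 UMIs, and for H2-Aa, at 0.55 with that limit. Some small list medians changed sign too. In IR+HSO against IR the naive and homing median was -0.028 in the main values and 0.086 with at least 5 Ccl5 UMIs. The cause of the other moves was not tested. Over all alternatives, 1169 of 1200 list medians moved by no more than the median half-width of their genes' counting intervals. That width describes single genes and is not the counting error of a median, so it is a loose limit. Of 688 values of named genes, 603 moved by no more than their counting error. By contrast, 33 of 66 shares and 27 of 102 gene counts moved by more than their limits. Leaving out the highest doublet scores removed 35 members in IR+HSO, 53 in IR and 7 in control. These were 11.2%, 16.2% and 4.70% of members, against 8.46%, 10.3% and 7.25% of all barcodes past the base limits. Members thus scored high more often than all barcodes in the irradiated libraries and less often in control. The settings on MHC class II, Cd8b1 and top cells were chosen after seeing the data. Depth limits what can be said of genes under 50 CPM.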
